A study of Mus musculus with 8 samples.

Results

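A set of 10 genes of the intermediate filament system were followed in mouse quadriceps: the keratins Krt80, Krt10, Krt8 and Krt18, the muscle and mesenchymal filament genes Des, Vim, Nes and Synm, and the filament-binding genes Plec and Jup. They were found by gene symbol in a table of 53819 symbols, and all 10 members had a row. The members had been chosen by name with earlier results of this same comparison known, so their values below are a description and none of them is independent evidence. A filter on low counts left 14070 genes for testing and kept 9 of the 10 members. Krt8 was not tested. Krt18 passed the filter with 11 counts in control replicate 1 and 21, 11 and 29 in tumor replicates 1, 2 and 4. It had 8 counts or fewer in every other library.

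The study asked how muscle differs in mice that lose weight while they carry a head and neck squamous cell carcinoma (HNSCC). The mice were wild-type C57BL/6J, 8 weeks old at the start, with 4 in each group and 1 RNA-seq library of the quadriceps, a thigh muscle, from each mouse. Tumor mice had been given 500000 cells of the HNSCC line B0092 in 200 µL under the skin of the nape, and control mice the same volume of PBS. Muscle was taken on day 36, when tumor mice had lost about 10% of their weight. B0092 is a single line, so the tumor group stands for 1 tumor model, and the labels name that line on the control samples too. The sex of the mice is not given in the sources used here.

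Intermediate filaments are rope-like polymers that link the nucleus, the contractile apparatus and the cell membrane. In a mature muscle fibre the main one is desmin, the product of Des, which ties myofibrils together at the Z-disc and anchors them to the membrane at costameres. Keratins are the filaments of epithelia and assemble as pairs of a type I and a type II protein, and low keratin levels in muscle are known at the Z-disc and the costamere.

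Library totals ran from 28436205 to 36139462 estimated counts. Values are CPM (counts per 1000000 counts of a library) scaled by the TMM factors of edgeR, which lay between 0.896 and 1.02 in 7 libraries and at 1.22 in tumor replicate 4. The tissue label was checked on the fibre markers: the summed level of 16 mature fibre genes was 195733 to 255134 CPM in controls and 134643 to 259807 CPM in tumor libraries. Myh4, the fast IIb myosin heavy chain, made up 88.5%, 95.1%, 98.0% and 64.6% of all counts of Myh1, Myh2, Myh4 and Myh7 in control replicates 1 to 4 and 98.9%, 80.3%, 98.5% and 95.2% in tumor replicates 1 to 4. Control replicate 4 and tumor replicate 2 therefore stood apart in fibre type, and results are also given without both. The whole muscle was measured, so fewer cells of a type and less RNA per cell cannot be told apart.

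Of the 14070 genes, 2781 passed an adjusted p of 0.05 between tumor and control (19.8%), with 11.0% higher (1552 genes) and 8.73% lower (1229) in tumor muscle. The balance turned with upper-quartile scaling (1169 higher, 1547 lower) and without tumor replicate 2 (1331 higher, 1450 lower). The groups did not overlap for 25.0% of the genes tested. Among the 9 members tested, Krt80, Des and Jup were called higher, Krt10 was called lower, and 5 were not called. The groups did not overlap for those same 4 called members. The median log2 fold change of the 9 members was 0.09, against 0.00 over all genes. Because the members were chosen with this contrast known, nothing is read from their share beside that background.

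**Figure D1:**
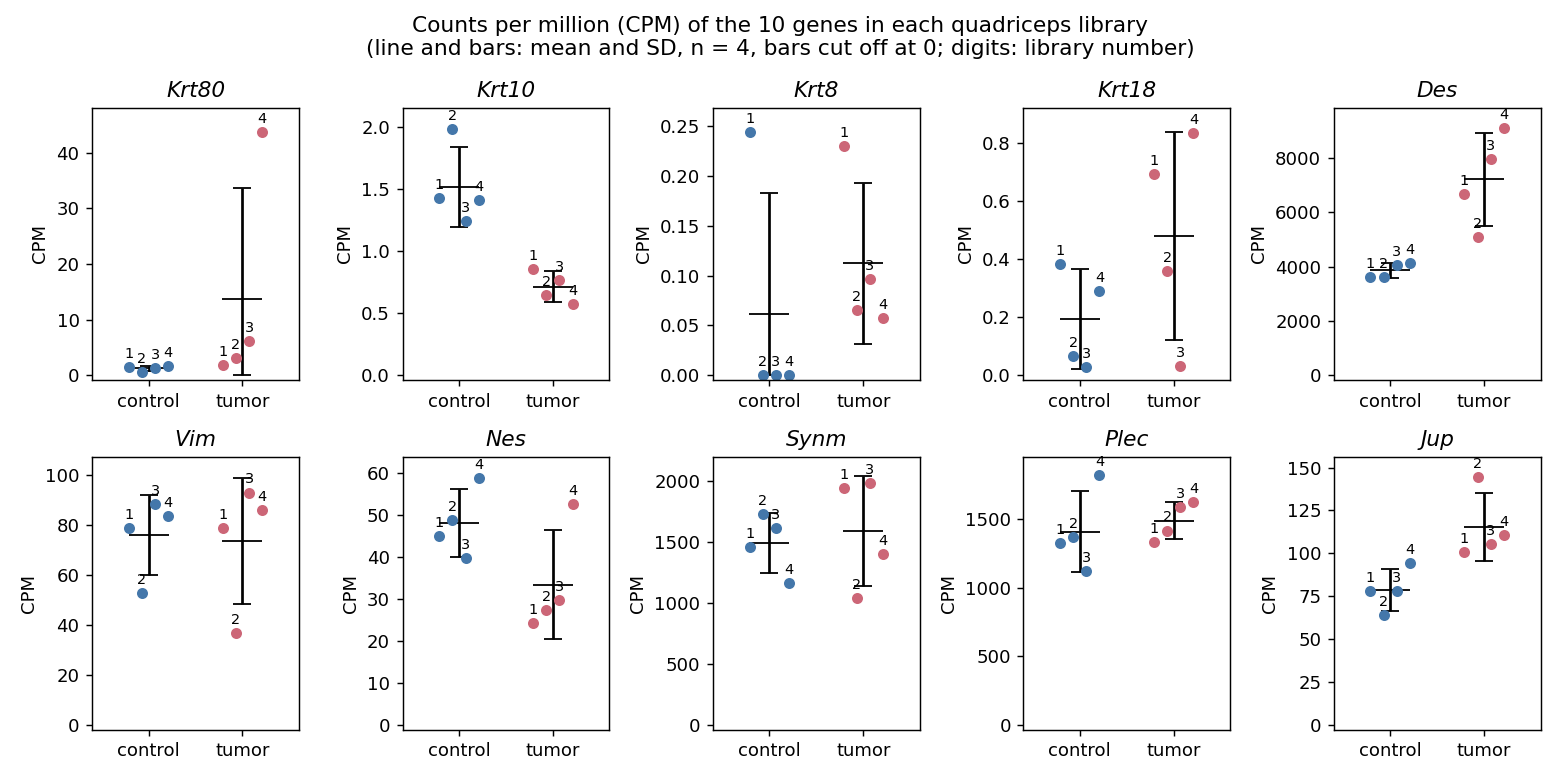
CPM of the 10 members in each of the 8 libraries, 1 panel per gene with a linear axis from 0; points are libraries with their replicate number, and the black line and bars are the group mean and SD (n = 4). The 4 tumor libraries lie above all 4 controls for Krt80, Des and Jup and below them for Krt10, and the groups overlap for the others.

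The promoters of the called members with an entry in the RefSeq promoter table (GRCm38.p6) are shown here as a description. Whether promoter sequence relates to the direction of change was not tested. Entries were found for 8 of the 10 members, all but Krt80 and Plec. Each run holds the 150 bases before the annotated start, read 5′ to 3′ on the gene's strand. Capitals mark matches, on either strand, to the TATA box TATAAA, to the E-box CANNTG that myogenic factors and others bind, to the CCAAT box or to the AP-1 site TGACTCA, none of which overlapped here.
Krt10, chr11:99389365-99389514, minus strand: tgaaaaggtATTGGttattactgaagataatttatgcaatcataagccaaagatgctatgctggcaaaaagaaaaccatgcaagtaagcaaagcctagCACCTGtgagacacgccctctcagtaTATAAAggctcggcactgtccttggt
Des, chr1:75360142-75360291, plus strand: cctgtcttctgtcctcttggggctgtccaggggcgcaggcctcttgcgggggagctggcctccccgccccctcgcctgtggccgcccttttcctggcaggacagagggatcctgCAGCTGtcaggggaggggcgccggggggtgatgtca
Jup, chr11:100397791-100397940, minus strand: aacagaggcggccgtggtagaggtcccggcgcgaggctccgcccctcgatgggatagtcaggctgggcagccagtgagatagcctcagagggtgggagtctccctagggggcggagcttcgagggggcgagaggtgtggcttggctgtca
The Krt10 window was 41.3% G+C, under the median of 54% over all 32851 windows, and held a TATAAA starting 26 bases before the start, an E-box match at 52 bases and a CCAAT at 141 bases. The Des window was 70.7% G+C with 1 E-box match at 36 bases, and the Jup window was 67.3% G+C with no match to any of the 4 motifs. Over all windows of that length, the TATA box letters were found in 7.57%, the E-box in 47.7%, the CCAAT box in 24.5% and the AP-1 site in 2.84%. TGACTCA was in none of the 8 members' windows. A match is a description of these letters and not evidence that a factor binds.

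Krt80, a type II keratin known from hair and from the cell edge of differentiating epithelium, had the largest fold difference of the members. Its level was 1.50, 0.496, 1.22 and 1.63 CPM in control replicates 1 to 4 and 1.84, 3.02, 6.07 and 43.6 CPM in tumor replicates 1 to 4. All tumor libraries were above all controls, but by widely differing amounts: tumor replicate 1 was 1.13 times the highest control, while tumor replicate 4 stood far above the rest. In counts, the 4 controls held 43, 15, 42 and 45 and the 4 tumor libraries 56, 93, 189 and 1520. Exact Poisson 95% intervals cover counting error only. That of tumor replicate 1 (1.39 to 2.39 CPM) overlapped control replicates 1 (1.08 to 2.02 CPM), 3 (0.876 to 1.64 CPM) and 4 (1.19 to 2.18 CPM). Those of tumor replicates 2 (2.44 to 3.70 CPM), 3 (5.24 to 7.0 CPM) and 4 (41.5 to 45.9 CPM) lay clear of every control.

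The mean of Krt80 was 1.21 ± 0.506 CPM in controls and 13.6 ± 20.1 CPM in tumor muscle (SD, n = 4 each). The log2 fold change was 3.50 ± 0.98 (SE), or 11.3-fold, with an adjusted p of 0.0347 by the edgeR quasi-likelihood test. Much of that size came from 1 library. Without tumor replicate 4 the log2 fold change was 1.59, or 3.00-fold, with an adjusted p of 0.0559. The adjusted p was 0.0906, 0.0910, 0.0804 and 0.0625 without control replicates 1, 2, 3 and 4 in turn, and 0.0597 without tumor replicate 3. Krt80 was called without tumor replicate 1 (adjusted p = 0.0192) and without tumor replicate 2 (0.0248), and also with control replicate 4 and tumor replicate 2 both left out (0.0340). With limma-voom the fold difference was 5.85 and its adjusted p 0.183. Its direction was the same in each of these fits.

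Krt10, the type I keratin of the upper epidermis, was lower in tumor muscle. It was measured at 1.43, 1.98, 1.24 and 1.41 CPM in control replicates 1 to 4 and at 0.856, 0.649, 0.771 and 0.574 CPM in tumor replicates 1 to 4. The highest tumor library was below the lowest control, and no library of either group stood far from its own. These levels rest on few reads, 39 to 60 counts a library in controls and 20 to 26 in tumor muscle. Means were 1.52 ± 0.323 and 0.713 ± 0.125 CPM, and the log2 fold change was -1.09 ± 0.30 with an adjusted p of 0.0325. The call held without tumor replicate 1 (0.0379) and was lost without control replicate 1 (0.0854), 2 (0.109), 3 (0.0544) or 4 (0.0531) and without tumor replicate 2 (0.0519), 3 (0.0815) or 4 (0.0595). It was also lost with no count filter (0.0859) and with control replicate 4 and tumor replicate 2 both left out (0.0659), while the log2 fold change stayed between -1.19 and -0.93 in every fit run.

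Krt8 and Krt18 are the type II and type I partners of simple epithelia, and their genes are neighbours on the chromosome. Krt8 had 7 counts in control replicate 1 and none in the other 3 controls, and 7, 2, 3 and 2 counts in tumor replicates 1 to 4. A count of 0 allows up to 3 counts, which is 0.0861 to 0.109 CPM in these libraries. Control replicate 1 at 0.244 CPM and tumor replicate 1 at 0.230 CPM were above that limit, with exact Poisson intervals that reach down to 0.0980 and 0.0926 CPM. A Krt8 pseudogene in the table (Krt8-ps, 3 counts in all) could share reads with it.

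Krt18 was at 0.383, 0.066, 0.029 and 0.290 CPM in control replicates 1 to 4 and at 0.691, 0.357, 0.032 and 0.833 CPM in tumor replicates 1 to 4, that is 1 to 29 counts a library. The groups overlapped, with 1 library in each group at a single count. The log2 fold change was 1.33 ± 0.90 and the adjusted p 0.324. Within the tumor group the spread was larger than counting error, since the exact Poisson intervals of tumor replicates 1 and 4 did not overlap that of tumor replicate 3.

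The table holds 55 symbols that begin with Krt and a digit. Of these, 34 had no count in any library, 12 had 1 to 10 counts in all and 9 had more than 10. Besides the members, Krt222, a keratin-like gene, was the other one to pass the count filter: it was at 1.58 ± 0.266 CPM in controls and 0.835 ± 0.561 CPM in tumor muscle, and its log2 fold change was -0.91 ± 0.46 (adjusted p = 0.193). Krt19, the simple-epithelial type I keratin, was not tested; it held 11, 11, 6 and 13 counts in the controls and 2, 4, 0 and 2 in the tumor libraries. Krt79, a keratin of hair follicle and sebaceous ducts, had 9, 8, 4 and 0 counts in controls and none in tumor muscle. Krt7, of simple and glandular epithelium, held 15 counts in controls, 13 of them in control replicate 4, and 7 in tumor libraries.

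In the tumor libraries Krt80 took a larger part of all keratin counts. All keratin symbols together held 171, 149, 145 and 179 counts in control replicates 1 to 4 and 154, 154, 237 and 1629 in tumor replicates 1 to 4. Krt80 made up 25.1%, 10.1%, 29.0% and 25.1% of those counts in the controls. In tumor replicates 1 to 4 it made up 36.4%, 60.4%, 79.7% and 93.3%. The exact 95% binomial interval of tumor replicate 1 (28.8% to 44.5%) overlapped those of control replicates 1 (18.8% to 32.3%), 3 (21.7% to 37.1%) and 4 (19.0% to 32.2%). The intervals of the other 3 tumor libraries, from 52.2% upward, did not overlap any control. Keratin counts other than Krt80 were 103 to 134 in controls and 48 to 109 in tumor libraries.

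**Figure D2:**
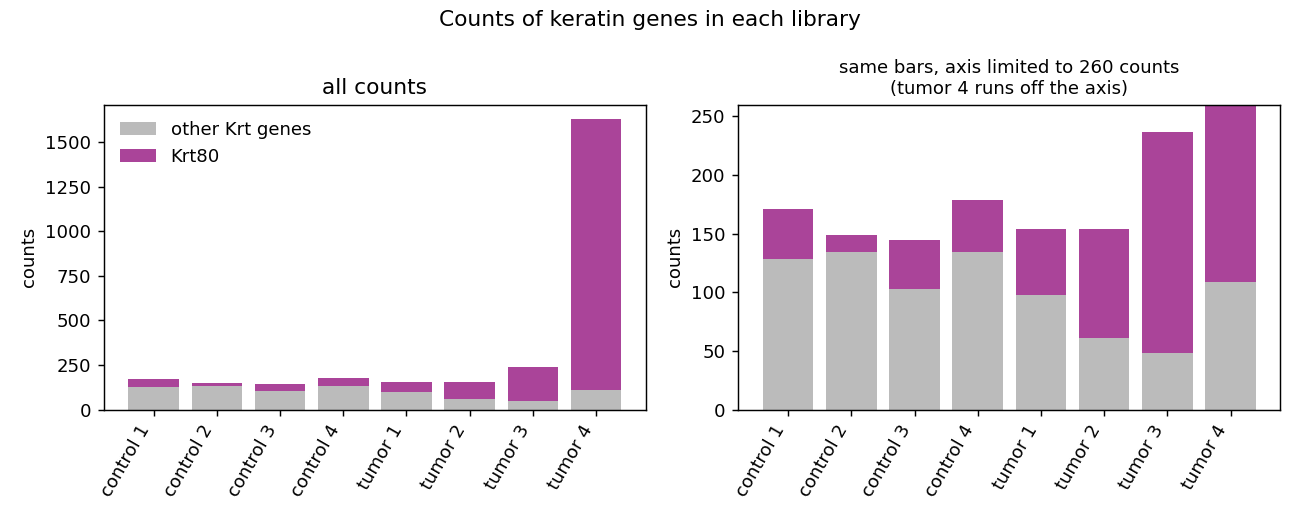
Counts of keratin genes in each library, with Krt80 (purple) stacked on the other keratins (grey); the right panel repeats the left with its axis limited to 260 counts, so that tumor replicate 4 runs off it. Tumor replicate 4 holds 1520 of the 1858 Krt80 counts of the tumor group, and the other keratins together lie between 48 and 134 counts in every library.

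Markers of other epithelium were looked at in the same libraries. Of 30 squamous epithelial genes, 13 had no count in any library, among them the basal keratins Krt5 and Krt14 and the stress keratins Krt6a and Krt17, as well as Dsg3 and Ivl. The summed squamous level was 14.2 to 17.2 CPM in controls and 20.6 to 41.8 CPM in tumor muscle, highest in tumor replicate 3. Of the 4 genes tested, 1 rose: Trp63, the p53-family factor that also has a form made in muscle, went from 8.17 ± 1.43 to 24.6 ± 8.86 CPM (log2 fold change 1.59 ± 0.25, adjusted p = 0.0048), and was the most abundant gene of the list. Trp63 alone gave 6.27 to 9.40 CPM of the control sums. In tumor replicates 1 to 4 it gave 15.7, 20.3, 36.2 and 26.2 CPM of sums of 20.6, 28.2, 41.8 and 34.7 CPM. The higher squamous sum therefore follows Trp63 and does not show a rise of the other genes. Of 16 simple-epithelial genes, Krt23 and Ovol2 were at 0 and only Elf3, an epithelial ETS factor, could be tested. Elf3 rose from 1.02 ± 0.182 to 5.68 ± 3.75 CPM (log2 fold change 2.48 ± 0.46, adjusted p = 0.0079), highest at 10.8 CPM in tumor replicate 2, whereas Krt80 was highest in tumor replicate 4. Trp63 and Elf3 were called with each library left out in turn. The summed simple-epithelial level was 1.48 to 2.86 CPM in controls, of which Elf3 gave 0.801 to 1.23 CPM. It was 4.61, 11.5, 6.33 and 2.58 CPM in tumor replicates 1 to 4, of which Elf3 gave 3.85, 10.8, 5.85 and 2.18 CPM. This sum therefore follows Elf3 and does not show a rise of the other simple-epithelial genes. The part of epithelial cells in the Krt80 values was not tested.

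The gene tables place Krt80 beside Smim41 and Krt7. These neighbours held 6 and 22 counts in all libraries together, and the next gene on the Smim41 side, Atg101, did not pass the test (log2 fold change -0.09, adjusted p = 0.657). An antisense transcript that overlaps Krt80, Gm35853, held 140 counts in all, with 21 in tumor replicate 4, and its log2 fold change was 0.22 ± 0.44 (adjusted p = 0.765). Whether the counting used strand is not given in the sources used here, so reads of such overlapping pairs may not be separable.

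By the smallest root mean square distance between standardised log2 CPM profiles over the 8 libraries, the genes most like Krt80 were Tubb6, Itga7 and Rras. Tubb6, a beta-tubulin, was nearest at a distance of 0.147, with 13.6, 7.38, 11.1 and 12.2 CPM in control replicates 1 to 4 and 12.4, 14.6, 26.8 and 94.1 CPM in tumor replicates 1 to 4. Its order among tumor libraries was that of Krt80, with tumor replicate 4 highest, but tumor replicate 1 lay among the controls. Itga7, the laminin-binding integrin of muscle fibres, followed at 0.187, with 72.6 ± 8.51 CPM in controls and 137 ± 82.1 CPM in tumor muscle, of which tumor replicate 4 had 259 CPM. Rras, a small GTPase, came next at 0.204. None of these genes passed the test (adjusted p of 0.067, 0.079 and 0.087), although Itga7 did without tumor replicate 1. The likeness was searched over 10315 genes and rests largely on 1 high library, so it is a description only.

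**Figure D3:**
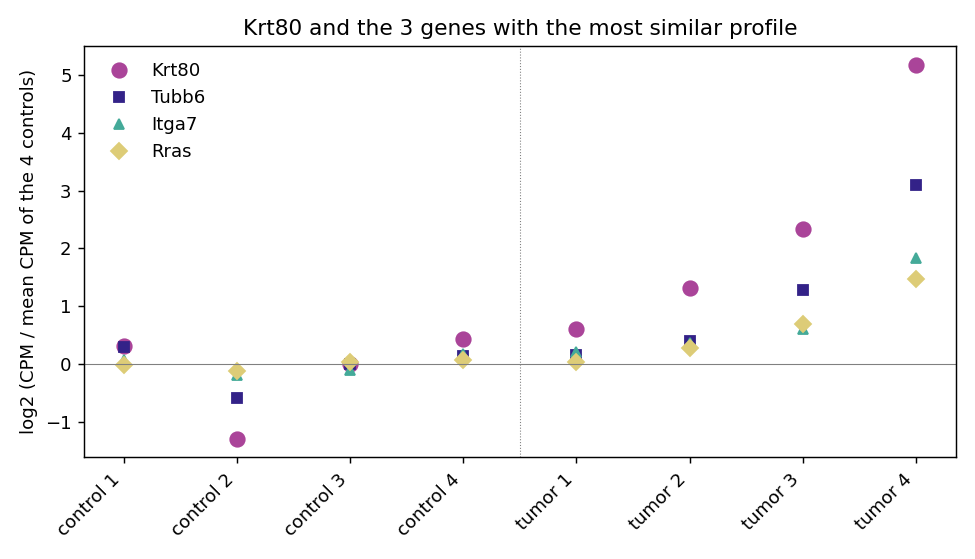
Log2 of CPM over the mean CPM of the 4 controls, for Krt80 and the 3 genes with the nearest profile (Tubb6, Itga7 and Rras), 1 marker per gene in each of the 8 libraries. All 4 genes are highest in tumor replicate 4.

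Desmin, the main muscle filament, was higher in tumor muscle. Des was at 3606, 3622, 4070 and 4140 CPM in control replicates 1 to 4 and at 6659, 5094, 7965 and 9112 CPM in tumor replicates 1 to 4. Every tumor library was above every control, and tumor replicate 2 was nearest to them. Means were 3859 ± 285 and 7207 ± 1729 CPM, and the log2 fold change was 0.90 ± 0.22, or 1.87-fold, with an adjusted p of 0.0212. Des was called without control replicate 4 (0.0378), tumor replicate 1 (0.0254), tumor replicate 2 (0.0111) and tumor replicate 4 (0.0269), and without both control replicate 4 and tumor replicate 2 (0.0137). The call was lost without control replicate 1 (0.0775), 2 (0.0700) or 3 (0.0505) and without tumor replicate 3 (0.0657), while its log2 fold change stayed between 0.76 and 1.01 with any 1 library left out.

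An antisense transcript, Gm15179, overlaps Des and was measured at 11.2, 8.40, 9.32 and 10.6 CPM in control replicates 1 to 4 and at 8.53, 5.26, 6.01 and 2.10 CPM in tumor replicates 1 to 4. The groups overlapped by tumor replicate 1, and the lowest library was tumor replicate 4, where Des was highest. Its log2 fold change was -0.85 ± 0.34 with an adjusted p of 0.105 by edgeR, 0.0490 by DESeq2 and 0.0420 without tumor replicate 1. Without any other single library its adjusted p was 0.0648 to 0.223.

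Synm, which encodes synemin, a large filament protein that co-assembles with desmin, did not follow it. Its level was 1458, 1732, 1616 and 1162 CPM in control replicates 1 to 4 and 1942, 1039, 1981 and 1401 CPM in tumor replicates 1 to 4. The groups overlapped, and the lowest library of each group was the one that stood apart in fibre type. The log2 fold change was 0.09 ± 0.23 with an adjusted p of 0.814, and 0.14 without those libraries. Synm overlaps Ttc23 on the other strand, a gene of 1555 counts in all that was called lower in tumor muscle (log2 fold change -0.56 ± 0.14, adjusted p = 0.0209), a call lost without control replicate 1, 2 or 3 or tumor replicate 3 (0.0511 to 0.0660).

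Vim, the filament of fibroblasts, endothelial cells, leukocytes and immature muscle cells, was not called. It was at 78.8, 52.9, 88.6 and 83.8 CPM in control replicates 1 to 4 and at 78.8, 36.5, 93.1 and 86.2 CPM in tumor replicates 1 to 4. The groups lay on top of each other, and 1 library of each group was low. The log2 fold change was -0.05 ± 0.28 with an adjusted p of 0.923.

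Nes encodes nestin, a filament protein of progenitor cells that in adult muscle marks the neuromuscular and myotendinous junctions and some vessel and nerve cells. It was at 44.9, 48.8, 39.8 and 58.9 CPM in control replicates 1 to 4 and at 24.2, 27.2, 29.6 and 52.6 CPM in tumor replicates 1 to 4. The first 3 tumor libraries were below all controls, while tumor replicate 4 lay within them. The log2 fold change was -0.53 ± 0.24 with an adjusted p of 0.153, and -0.84 with an adjusted p of 0.0107 without tumor replicate 4. It was not called with any other library left out.

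Markers of cells known to make Vim or Nes differed between the groups. The counts of calls in this paragraph stand beside 11.0% higher and 8.73% lower over all genes. Of 14 endothelial genes 7 fell and none rose, with a summed level of 273 to 433 CPM in controls and 155 to 280 CPM in tumor muscle. The VEGF receptor Kdr (log2 fold change -1.88 ± 0.32, adjusted p = 0.0061) and Emcn (-1.40, 0.0063), Eng (-0.89, 0.0090) and Egfl7 (-0.68, 0.0110) led them, while Cdh5, the most abundant, was not called (0.0542). Of 12 mural genes 6 fell, led by Smtn (-1.01, 0.0067), Acta2 (-1.25, 0.0121), Cspg4 (-1.0, 0.0127) and Notch3 (-0.95, 0.0184), and the sums overlapped at 528 to 711 and 446 to 626 CPM. The most abundant mural gene, Abcc9, a potassium channel subunit also made in muscle fibres, lay the other way: it was 245 ± 18.4 CPM in controls and 320 ± 39.9 CPM in tumor muscle without overlap (log2 fold change 0.38, adjusted p = 0.0685 by edgeR and 0.0363 by DESeq2), and was called without tumor replicate 4 (0.0426). Abcc9 alone gave 220 to 260 CPM of the control mural sums and 276 to 354 CPM of the tumor ones. The mural sums therefore do not stand for the other genes of that list. Of 14 fibroblast genes 5 fell, led by Pi16 (-1.84, 0.0036), Fbn1 (-1.17, 0.0230), Col3a1 (-2.04, 0.0263) and Postn (-1.99, 0.0316), with sums of 916 to 1475 and 659 to 1299 CPM; the most abundant, Gsn, was not called (-0.17, 0.760). With 1 library left out, 4 to 8 endothelial, 2 to 7 mural and 1 to 6 fibroblast genes were called lower. Kdr, Emcn, Eng, Egfl7, Smtn, Acta2 and Pi16 were called in all 8 of these fits. The fewest fibroblast calls came without control replicate 1 or tumor replicate 3, and the fewest mural calls without control replicate 1. Of 12 macrophage genes 1 rose, Cd163 (1.05, 0.0113), and the sums were 77.5 to 134 and 57.4 to 190 CPM, with tumor replicate 2 lowest, as for Vim. Lyz2, the most abundant of them, was not called (0.16, 0.815), and 3 macrophage genes were called higher without tumor replicate 2. The part of these cell types in the Vim and Nes values was not tested.

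Plec encodes plectin, the giant linker that ties desmin to Z-discs, costameres, nuclei and mitochondria. It was at 1325, 1369, 1120 and 1825 CPM in control replicates 1 to 4 and at 1333, 1417, 1587 and 1622 CPM in tumor replicates 1 to 4. All tumor libraries lay within the range of the controls. The log2 fold change was 0.08 ± 0.18 with an adjusted p of 0.792. Parp10 overlaps Plec on the same strand, with 814 counts in all.

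Jup encodes plakoglobin, also called gamma-catenin, which joins desmosomal and other cadherins to filaments and in muscle is found at the membrane with desmin. It was at 78.0, 64.2, 78.0 and 94.5 CPM in control replicates 1 to 4 and at 100, 145, 106 and 111 CPM in tumor replicates 1 to 4. The tumor libraries were above all controls, by a margin of 1.06 times between the lowest of them and control replicate 4. Means were 78.7 ± 12.4 and 115 ± 20.0 CPM, and the log2 fold change was 0.55 ± 0.16 with an adjusted p of 0.0384. Jup was called without control replicate 4 (0.0288) or tumor replicate 1 (0.0365) and without both libraries that stood apart (0.0222). It was not called without control replicate 1 (0.104), 2 (0.107) or 3 (0.0844) or without tumor replicate 2 (0.0829), 3 (0.0766) or 4 (0.0549). With upper-quartile scaling its adjusted p was 0.0516.

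**Figure D4:**
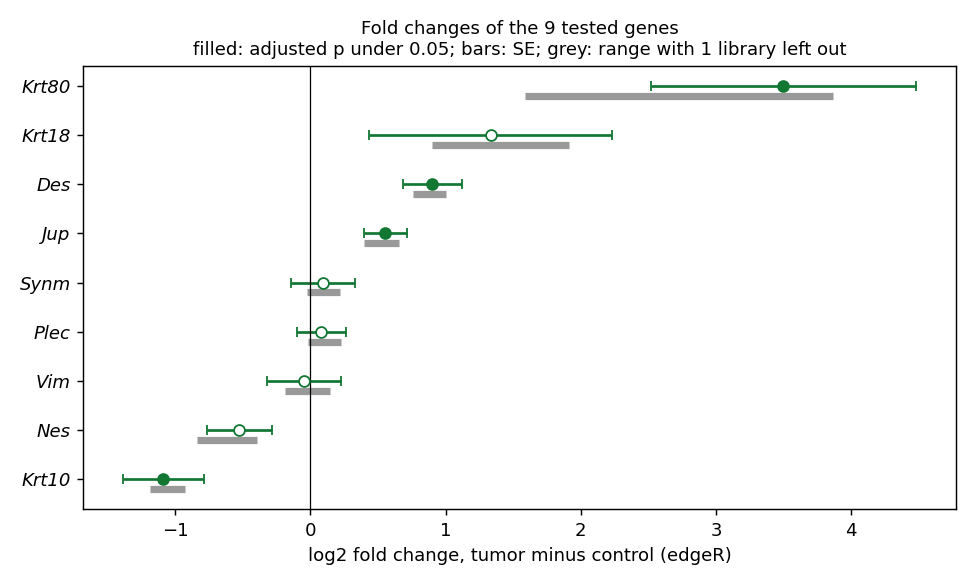
Log2 fold change, tumor against control, of the 9 members tested, with SE bars around the edgeR estimate from all 8 libraries (filled where called) and a grey bar for the range over fits that leave out 1 library. Krt80 has the largest estimate, 3.50, and the widest range, down to 1.59 without tumor replicate 4, while Des stays between 0.76 and 1.01.

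To compare levels between genes, CPM were divided by the length in kilobases of the longest coding transcript, matched by symbol to GENCODE M21. On this scale Des stood first at 1275 ± 94.2 CPM per kb in controls, followed by Synm at 191 ± 31.6, Plec at 91.2 ± 19.3, Vim at 34.7 ± 7.27, Jup at 24.5 ± 3.87 and Nes at 7.85 ± 1.32. The keratins were far below: Krt10 at 0.725 ± 0.154, Krt80 at 0.309 ± 0.129, Krt18 at 0.134 ± 0.119 and Krt8 at 0.0311 ± 0.0622 CPM per kb. The ranges of Vim and Jup, of Krt80 and Krt18 and of Krt18 and Krt8 overlapped, and the other neighbours in the order did not.

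In tumor muscle Des was at 2380 ± 571, Synm at 203 ± 58.0, Plec at 96.4 ± 8.89, Jup at 36.0 ± 6.24, Vim at 33.6 ± 11.6 and Nes at 5.45 ± 2.12 CPM per kb. Among the keratins, Krt80 was at 3.48 ± 5.12 and Krt10 at 0.340 ± 0.0599, with Krt18 at 0.333 ± 0.249 and Krt8 at 0.0573 ± 0.0411 CPM per kb. On this scale Krt80 and Krt10 stood in opposite orders in the groups, with no overlap between them in either. In CPM, before division by length, their controls overlapped, at 0.496 to 1.63 for Krt80 and 1.24 to 1.98 for Krt10. The separation in controls thus depends on the transcript lengths used, and these ranges leave out counting error. The Krt80 libraries ran from 0.470 to 11.1 CPM per kb and those of Nes from 3.94 to 8.58; tumor replicate 4 alone put Krt80 above Nes, and the other 3 lay below every Nes value.

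Within a library, the balance between filament genes does not depend on the scaling. The ratio of Des to Vim per kb was 33.1 to 49.6 in controls and 61.2 to 101 in tumor muscle, without overlap. Des to Synm was 5.40 to 9.20 in controls and 8.85 to 16.8 in tumor muscle, and Des to Plec was 11.6 to 18.6 and 18.3 to 28.7, both with a slight overlap. The ratio of Synm to Plec, 1.26 to 2.85 and 1.45 to 2.88, overlapped almost wholly. Des to Acta1, the skeletal actin gene, was 0.0665 to 0.0881 in controls and 0.184 to 0.855 in tumor muscle. Acta1 was itself called lower, from 25033 ± 2919 to 10635 ± 5029 CPM (log2 fold change -1.24 ± 0.35, adjusted p = 0.0368), so both terms of that ratio moved. The Acta1 call was lost without any 1 of the 4 controls and without tumor replicate 2 or 3.

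Other genes of the filament system were read from lists chosen by function. Of 14 further filament genes, which include the lamins and Sync, 6 were tested and none passed the adjusted test by edgeR, DESeq2 or limma-voom, with a median log2 fold change of -0.00. At an unadjusted p of 0.05, 1 passed in edgeR, Sync. It encodes the desmin-binding protein syncoilin and was at 0.62 ± 0.26 (adjusted p = 0.128), with 121 CPM in tumor replicate 4 against 42.5 to 71.6 CPM in the other 7 libraries, and Iffo2 was at -0.54 (0.163). Of the plakins and nuclear linkers, 6 were tested, 2 rose and none fell, beside 11.0% and 8.73% over all genes, with a median of 0.09. Syne1, the nesprin that holds nuclei in place, rose from 119 ± 13.8 to 282 ± 77.8 CPM (1.25 ± 0.21, adjusted p = 0.0059). Ppl, which encodes periplakin, a plakin of the epithelial envelope, rose from 4.06 ± 1.27 to 9.63 ± 1.28 CPM (1.24 ± 0.24, 0.0091). Both were called with any 1 library left out.

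Desmosomal genes, the classical partners of plakoglobin, were mostly below the count filter. Of 15 listed, 3 could be tested and 0 passed by edgeR, adjusted or at an unadjusted p of 0.05, or by DESeq2 or limma-voom; their median was 0.49. Pkp2 was at 0.49 (adjusted p = 0.178) and Pkp4 at -0.37 (0.341), and the desmogleins Dsg1a, Dsg1b, Dsg3 and Dsg4 had no count in any library. Of 16 tested cadherins and catenins, 1 rose and 2 fell, beside 11.0% and 8.73% over all genes, with a median of -0.43. Cdh15, the M-cadherin of satellite cells and muscle fibres, rose from 21.0 ± 1.26 to 57.3 ± 13.0 CPM (1.44 ± 0.16, 0.0024) and was called with each library left out. Ctnna3 (-0.71 ± 0.17, 0.0209) and Ctnnal1 (-1.06 ± 0.29, 0.0316), both alpha-catenin family genes, fell; the first call was lost without control replicate 3 or tumor replicate 3, and the second without control replicate 1, 2 or 4 or tumor replicate 3 or 4. Upper-quartile scaling raised the number of falling genes in this list from 2 to 5.

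The costamere and dystrophin complex list, where desmin filaments reach the membrane, had 30 genes tested, of which 3 rose and 2 fell, with a median of -0.04. Over all genes 11.0% were called higher and 8.73% lower, so nothing is read from these counts about the list. Ank3, an ankyrin, rose (0.87 ± 0.17, 0.0101), as did dystrophin, Dmd (0.74 ± 0.18, 0.0217), and the filamin Flnc (1.36 ± 0.35, 0.0250). The sarcospan gene Sspn fell (-0.69 ± 0.13, 0.0092). Sspn and Ank3 were called with each library left out, whereas Dmd and Flnc lost the call without control replicate 1, 2 or 3 or tumor replicate 3. With 1 library left out, 1 to 5 genes of the list were called higher and 1 to 4 lower.

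Of 20 genes for the folding and breakdown of filaments, 5 rose and 2 fell, beside 11.0% and 8.73% over all genes, with a median of -0.13. The constitutive chaperone Hspa8 fell, from 1042 to 1166 CPM in controls to 353 to 719 CPM in tumor muscle (-1.26 ± 0.23, 0.0078). Trim63, the MuRF1 ubiquitin ligase, rose (2.17 ± 0.43, 0.0098), as did the calpain small subunit Capns1 (0.72 ± 0.14, 0.0087) and Dnajb6, a desmin co-chaperone mutated in a limb-girdle myopathy (0.68 ± 0.15, 0.0127). All were called with each library left out, except Dnajb6 without control replicate 1. These lists were chosen with earlier results of this comparison known and their counts are a description.

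**Figure D5:**
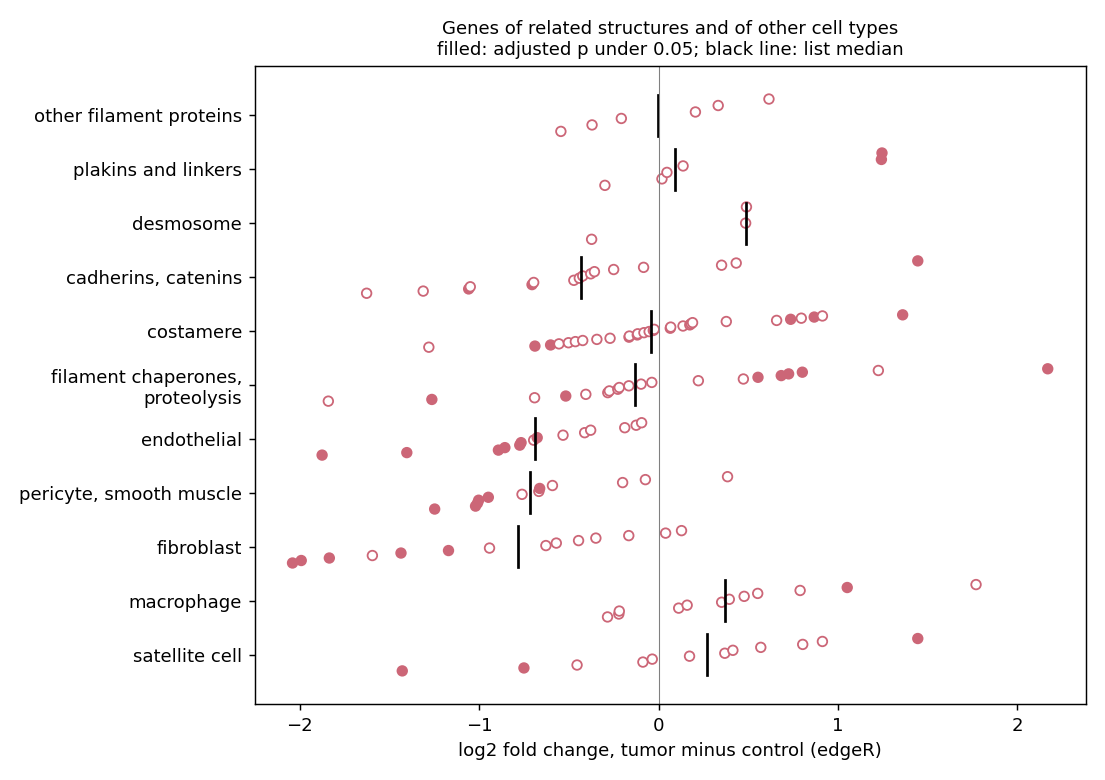
Log2 fold change, tumor against control, of each tested gene in 11 lists of filament-related genes and cell type markers; filled points passed an adjusted p of 0.05 and black lines are list medians. Endothelial, mural and fibroblast markers have 7, 6 and 5 filled points, all below 0, and the plakin list has 2, both above 0.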

How the data were processed

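A library of quadriceps RNA was sequenced from each of 8 mice, after isolation with the RNeasy Mini kit and library preparation with Universal Plus mRNA-Seq with NuQuant, per the labels' protocols. The deposited values are the authors' estimated counts for 53819 symbols, of which 9% were not whole numbers. The submitters' processing notes list Salmon 1.10.1, STAR 2.7.9a, Trim Galore 0.6.7, cutadapt 3.4, R 4.2.2 and GRCm39, without roles; annotation and strand setting are not given in these sources. Estimated counts divide reads that match several genes among them, so paralogs, pseudogenes and overlapping genes are less certain.

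The counts were rounded to whole numbers and filtered with filterByExpr (minimum count 10), which left 14070 of 25972 symbols with a count and 99.92% of all counts. Groups were compared with the edgeR 4.0.16 quasi-likelihood test (R 4.3.3, TMM factors, group as the only term, two-sided, Benjamini-Hochberg over 14070 genes, threshold 0.05), which was first tested on simulated data. The biological coefficient of variation was 30.1%. SEs are the log2 fold change over the square root of F, and means and SDs are over 4 libraries. Nothing beyond 1 mouse per library is given on replicates, and no pair of libraries in a group agreed within sampling noise. Alternatives were other scaling (DESeq2 size factors, upper quartile), no count filter, DESeq2 1.42.0, limma-voom (limma 3.58.1), a replicate block, each library left out, and control replicate 4 with tumor replicate 2 left out.

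The members, the gene lists and the rule for named genes were chosen with earlier results of these data known. Named were all members, the keratins that passed the filter and the 3 untested ones with most counts, up to 4 called genes of each list by smallest p (2 where none was called) and, for markers of other cells, the most abundant gene. The nearest profiles were sought over genes whose mean log2 CPM reached 1, computed with a prior count of 2.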

Additional observations from a re-analysis of the deposited data

Results flagged for a closer look

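Of the 20 sets of 4 values that the members give in the 2 groups, 2 held a library far from the other 3 by Dixon's 95% criterion, and chance alone marks about 1 set in 20. Krt80 in tumor replicate 4, at 43.6 CPM, lay apart from the other tumor libraries at 1.84 to 6.07 CPM, with a gap of 0.899 of the group's range. Krt8 in control replicate 1, at 0.244 CPM or 7 counts, lay apart from the other controls, which had no count. With the other values at 0, the criterion is met by any count above 0, and the exact Poisson interval of that library, 0.0980 to 0.502 CPM, overlapped those of the other controls.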

How the results depend on the processing

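With each library left out in turn, 1110 to 2845 genes were called, 630 to 1551 higher and 480 to 1450 lower, and 0 to 4 members; fewest were called without control replicate 1. edgeR called no member without control replicate 1, 2 or 3 or tumor replicate 3. With control replicate 4 and tumor replicate 2 both left out, 2922 genes and 3 members (Des, Jup and Krt80) were called. A replicate block left 1932 genes, 1014 of them higher, and 1 member, Des (Krt80 was at 5.80-fold, adjusted p = 0.0510). The correlations of same-numbered libraries' deviations were 0.028, 0.131, 0.197 and 0.016. Those of differently numbered control and tumor libraries ran from -0.311 to 0.148. Not all same-numbered values passed 0.1, so the numbers were not taken to pair the mice. Other scaling gave 2735 (DESeq2 size factors) and 2716 calls (upper quartile, which moved the median log2 fold change of all genes to -0.07). Without a count filter 2343 were called, and 3 members without Krt10; DESeq2 called 3474 and 4 members, and limma-voom 2770 and 3 members without Krt80. Over the 71 single genes followed, 900 comparisons with an alternative gave the same direction and call, 118 lost the call, 26 gained one and 20 changed sign with neither value called; no called value changed sign. Depth limits Krt8 and the other untested keratins, where 3 counts are 0.0861 to 0.109 CPM.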

Other observations

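Genes of the neuromuscular junction, where nestin is known to gather, were called in both directions. Of 14 tested, 3 rose and 2 fell, beside 11.0% and 8.73% over all genes, with a median log2 fold change of 0.41. That median changed sign to -0.46 without tumor replicate 4, so its direction rests on that library. The receptor subunit Chrnb1 (1.14, adjusted p = 0.0242 by edgeR) and the transcription factor Runx1 (1.79, 0.0436) rose, and the esterase Ache (-1.37, 0.0198) and the adaptor Dok7 (-0.82, 0.0338) fell. With 1 library left out, 0 to 3 were called higher and 0 to 3 lower; none was called without control replicate 1 or 2. The summed level was 136 to 174 CPM in controls and 129 to 157 CPM in tumor replicates 1 to 3, and 388 CPM in tumor replicate 4, the library with most Krt80.

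Of 12 satellite cell genes tested, Cdh15 rose while Myod1 (-1.43, 0.0053) and Vcam1 (-0.75, 0.0421, lost in 7 of 8 fits with a library left out) fell. These counts stand beside 11.0% higher and 8.73% lower over all genes, and nothing is read from them about the list. The summed level of the satellite cell list was 164 to 200 CPM in controls and 190 to 416 CPM in tumor muscle, highest in tumor replicate 4, with Itga7 the most abundant. Itga7, also of muscle fibres, gave 259 of the 416 CPM in that library. The sum is thus not a measure of satellite cells alone. Pax7 (-0.09, 0.834) and Myf5 (-0.04, 0.962) were among the 9 genes not called. Of 10 Schwann cell genes 1 rose, Ngfr (2.09, 0.0164), a call lost without control replicate 1 or tumor replicate 3, and Pmp22 was the most abundant. Of 16 mature fibre genes 2 fell, Acta1 and Myh7, the slow myosin heavy chain, and Myh4 was the most abundant. Myh7 was at 119, 16.4, 1.48 and 2164 CPM in control replicates 1 to 4 and at 0.115 to 4.09 CPM in tumor libraries, so the groups overlapped and control replicate 4 carried the mean. Its log2 fold change by edgeR was -8.06 (adjusted p = 0.0284, lost in 4 of 8 fits with a library left out) and -4.41 without control replicate 4 (0.0491). The Myh7 call was also lost with limma-voom (-5.44, adjusted p = 0.307) and with a replicate block in edgeR (-4.04, 0.220). None of the 8 adipocyte genes passed edgeR's test, adjusted or at an unadjusted p of 0.05, or DESeq2 or limma-voom, Fabp4 the most abundant of them (0.347). The summed level was 837, 1370, 444 and 180 CPM in control replicates 1 to 4 and 178, 1172, 134 and 109 CPM in tumor replicates 1 to 4. Without tumor replicate 2, the highest tumor library, edgeR called 3 of 8 lower, with a list median of -2.85. Without control replicate 4, the lowest control, as well, it called 8 of 8 lower, with a median of -3.24. Those libraries were set apart by fibre type but are also the extremes of this list, so these fits are not support for a fall.

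Among the genes with the profile nearest to Des over the 8 libraries were Dhps at a distance of 0.113 and Fth1 at 0.126. Both were called higher in tumor muscle, with log2 fold changes of 0.93 and 0.64 and adjusted p of 0.011 and 0.033. Nearest to Nes were Tars2 at 0.086, Slco5a1 at 0.176 and Gabpb1 at 0.225, and nearest to Vim were Sirpa at 0.204, S100a6 at 0.245 and Evi2a at 0.292.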
